A study of Saccharomyces cerevisiae with 8 samples.

Results

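The genes described here encode the mitochondrial protein import machinery of budding yeast, the translocases, chaperones and peptidases that bring nuclear-encoded proteins into the organelle and trim them there. They are 35 of the 6668 genes listed for each library, and were chosen by name: subunits of the TOM, SAM, TIM22, TIM23 and PAM complexes, the small TIM chaperones, the intermembrane space oxidative pathway, OXA1 and the processing peptidases. The tail-anchored TOM subunits were left out of the set. All 35 names were found in the tables. The yeast was Saccharomyces cerevisiae of the W303 background in 4 genotypes: wild type, a deletion of MSP1, a deletion of PEX19, and a deletion of both genes (the double deletion). All 4 strains grew on glycerol and ethanol (2% of each) in synthetic complete medium, carbon sources that are used by respiration. Msp1 is an outer membrane ATPase of mitochondria that pulls out tail-anchored proteins inserted in the wrong membrane. Pex19 is a cytosolic chaperone and import receptor for peroxisomal membrane proteins. A genotype was read by 1 library of RNA (RNA-seq) and 1 of the mRNA stretches covered by translating ribosomes (ribosome-protected fragments, RPF), which makes 8 libraries.

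No genotype was repeated in either assay, so replicate error is unknown and nothing was tested. A 95% interval, given in brackets after many of the ratios, is for counting error only, and PCR copies cannot be told from separate molecules in these reads. RNA-seq libraries held 4694951 to 5367091 reads assigned to genes and RPF libraries 1101458 to 2300792, the lowest being the RPF library of the msp1 deletion. MSP1 was listed at 731 RNA and 122 RPF reads in wild type and at 1 read, the lowest value of the tables, in all 4 libraries of the strains that lack it. PEX19 had 387 RNA and 216 RPF reads in wild type and was likewise listed at 1 in the 4 libraries of its deletions. The import genes together took 0.411% to 0.439% of RNA reads and 0.397% to 0.411% of RPF reads. A mean of at least 50 reads over the 4 libraries of each assay was passed by 3737 genes, of which 29 were import genes. MIM1, TIM12, HOT13, IMP1, IMP2 and SOM1 were under this minimum and are in no count of genes past a fold unless this is said. Ratios of such genes, where given, rest on few reads.

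Nearly all mitochondrial proteins are made on cytosolic ribosomes and enter through the TOM complex of the outer membrane. From there the routes divide. Precursors with a presequence pass through TIM23 and are pulled into the matrix by the PAM motor, where the processing peptidases remove the presequence. Carrier proteins are escorted by small TIM chaperones to TIM22, beta-barrel proteins are inserted by SAM, and small cysteine-rich proteins are trapped in the intermembrane space by disulfide bonds formed with MIA40. The small TIMs are themselves MIA40 substrates: each carries a pair of CX3C motifs, a cysteine, 3 other residues and a cysteine, which form the disulfides.

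The coding stretch from the first to the last cysteine of this twin motif is shown for the 5 small TIMs, since it is the shared feature that sets this family apart within the set. A search for 2 CX3C motifs separated by 8 to 30 codons found them in these 5 of the 35 import genes and in 0.351% of 5988 coding sequences. Codons were read in frame from the R64 reference sequence (strain S288C, not W303), 5′ to 3′ on the coding strand, and the 4 cysteine codons of the motifs are in capitals, other cysteine codons of the stretch being in lower case.
TIM8, chrX:677100-677174, plus strand: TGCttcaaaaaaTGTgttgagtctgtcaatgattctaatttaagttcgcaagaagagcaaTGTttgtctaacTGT
TIM9, chrV:117313-117387, plus strand: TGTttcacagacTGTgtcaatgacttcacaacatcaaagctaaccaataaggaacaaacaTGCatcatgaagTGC
TIM10, chrVIII:115707-115784, minus strand: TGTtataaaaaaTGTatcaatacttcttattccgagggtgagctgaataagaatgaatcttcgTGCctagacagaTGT
TIM12, chrII:427287-427367, minus strand: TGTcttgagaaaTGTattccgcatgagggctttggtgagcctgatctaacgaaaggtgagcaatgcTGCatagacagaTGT
TIM13, chrVII:858455-858517, plus strand: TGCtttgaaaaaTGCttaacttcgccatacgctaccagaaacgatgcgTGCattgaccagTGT
The spacing between the motifs was 15 codons in TIM8 and TIM9, 16 in TIM10, 17 in TIM12 and 11 in TIM13.

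The second set of sequences surrounds the start codon of the 3 import genes with the highest and the 3 with the lowest translational efficiency in wild type, given here because the ribosome starts there. Each line holds 15 bases before the start codon, the start codon in capitals and 9 bases after it, from the same reference.
TIM17, chrX:147086-147112, plus strand: gtacacgggagcgttATGtcagccgat
MGR2, chrXVI:364716-364742, minus strand: caatattaagatataATGcctcctctt
TIM8, chrX:676956-676982, plus strand: tacaaacaacaaagaATGtcttctcta
SAM35, chrVIII:272612-272638, plus strand: aagccatcgtgcacaATGgtaagttca
TOM71, chrVIII:342334-342360, plus strand: acataagaagctcttATGgccgaaaac
TIM54, chrX:334250-334276, plus strand: gaagctcaatagaccATGtcttctgaa
The 15 bases before the start held 3 adenines in TIM17, 8 in MGR2 and 10 in TIM8, against 5 in SAM35, 6 in TOM71 and 6 in TIM54. The median over 3733 genes was 6. Spearman's rho between this count and translational efficiency was 0.25 across those genes and 0.05 across the 29 import genes. The high and low sets overlapped in their adenine counts.

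In wild type, the levels of the import genes spanned a wide range, and the small TIM chaperone TIM10 stood at the top in both assays. Levels between genes are compared per length, as the TPM values deposited by the authors, which divide reads by gene length and by library total. RNA-seq TPM was 793 for TIM10, 326 for TOM40 (the channel of the outer membrane) and 300 for MIA40 (the disulfide carrier), the 3 highest. The lowest 3 were TIM22 at 49.1, IMP2 at 43.3 and HOT13 at 32.2. RPF TPM ranged from 15.5 for SAM35 to 701 for TIM10. Summed over its subunits, the TIM23 complex reached 743 RNA-seq TPM over 5 genes and the TIM22 complex 197 over 3, while the 5 small TIMs reached 1390.

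**Figure D1:**
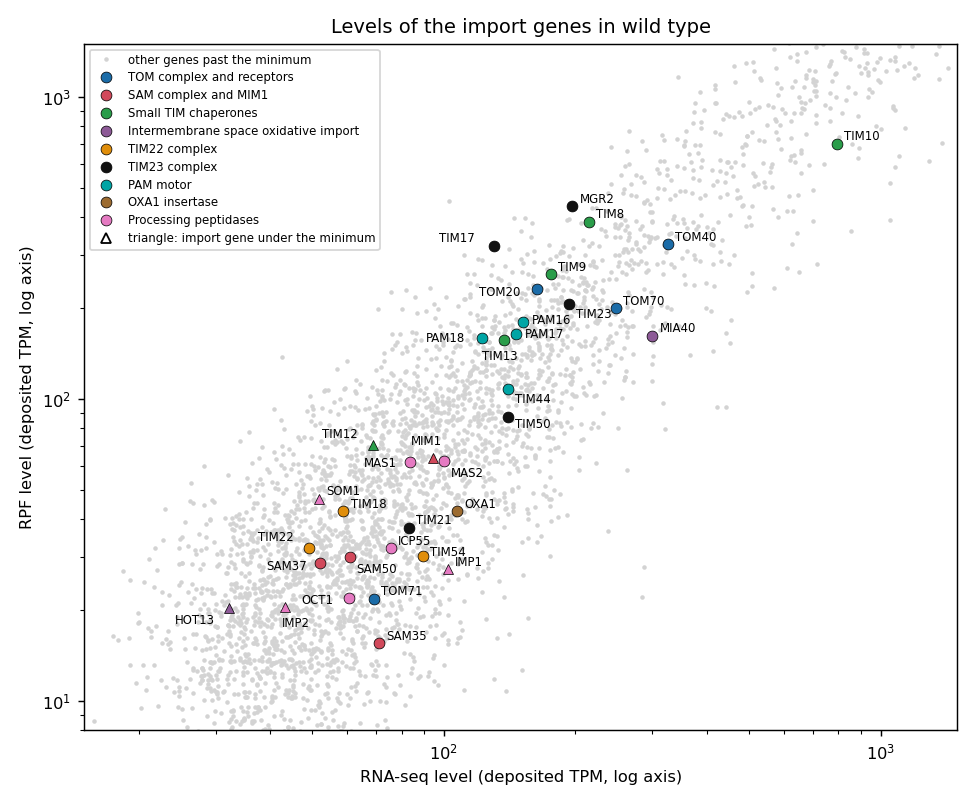
Deposited TPM of the 35 import genes in wild type, RNA-seq on the horizontal and RPF on the vertical axis, both logarithmic; colours mark the machinery, triangles the 6 genes under the read minimum and grey points other genes inside the axis window. TIM10 lies at the upper right, SAM35 lowest on the RPF axis at 15.5, and TIM17 and MGR2 lie above genes of similar RNA-seq level.

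Translational efficiency, the RPF level of a gene over its RNA-seq level, each as a share of its library, differed among the import genes in wild type by more than 3 log2 units. It is given as log2 with the median of the 3737 genes set to 0. TIM17 (1.86), MGR2 (1.70) and TIM8 (1.41) were highest, and SAM35 (−1.60), TOM71 (−1.10) and TIM54 (−1.0) lowest. The median of the 29 import genes was 0.13, with 16 above and 13 below the median gene. In all 4 genotypes 20 of the 29 kept the same sign, against 75.4% of all genes.

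Short import genes had the high values. All 11 import genes under 600 coding nt lay above 0, as did 92.2% of the 588 genes of that length, and 5 of the 18 longer import genes did, against 42.0% of 3145 longer genes. Spearman's rho with coding length was −0.76 over the 29 import genes and −0.73 over 3733 genes, so the relation was that of yeast genes in these libraries as a whole. With the trend on coding length and GC content removed, the median of the import genes was −0.14 and 9 of 29 lay above 0. SAM35 then stood at −2.03, the lowest of the 29, and TOM70 and TIM17 were highest at 0.80 and 0.79.

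**Figure D2:**
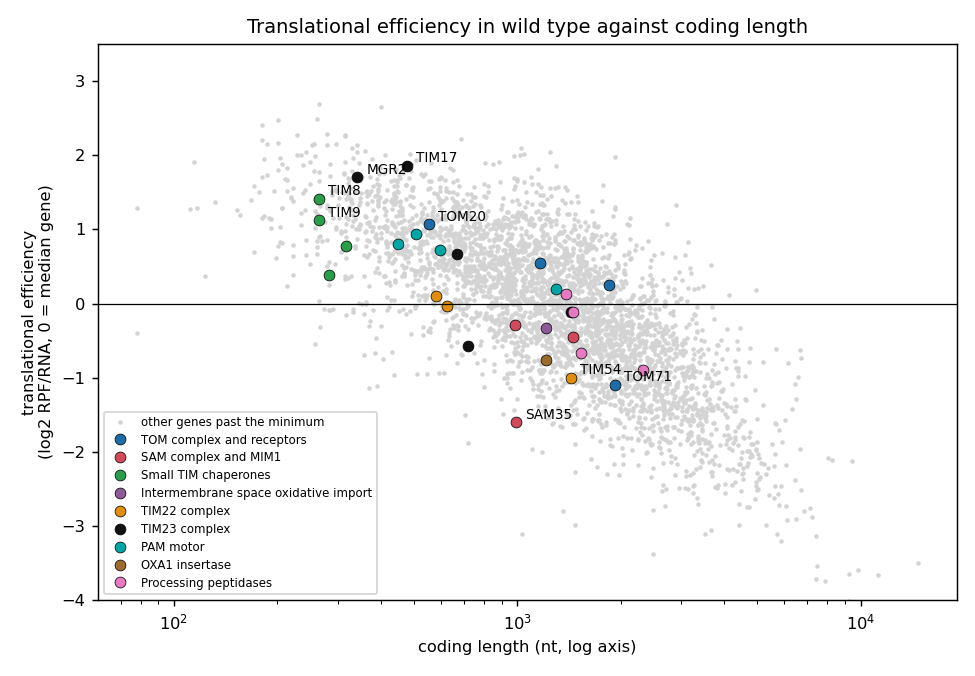
Translational efficiency in wild type (log2 RPF over RNA-seq, 0 = median gene) against coding length on a logarithmic axis; coloured points are the 29 import genes past the read minimum and grey points the other genes. The import genes follow the fall with length seen in the grey points, and SAM35 at −1.60 lies below most genes of its length.

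None of the 29 import genes was at least 1.5-fold higher or lower than wild type in RNA-seq and RPF together in any deletion. Among all 3737 genes, 0.348% were that much higher and 0.187% that much lower in the msp1 deletion, while the pex19 deletion gave 0.482% in each direction and the double deletion 0.134% and 0.348%. With shares this small, a count of 0 among 29 genes is near the background and says nothing particular to the import genes. The 3 comparisons with wild type share the same wild-type libraries.

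Medians of the 29 log2 ratios against wild type were −0.05 in RNA-seq and 0.09 in RPF for the msp1 deletion. The pex19 deletion gave 0.03 and −0.02, and the double deletion 0.08 and 0.07. Over all genes these medians lay between −0.011 and 0.015. Across all 6 ratios, 23 of the 29 import genes (79.3%) stayed within 1.5-fold of wild type, against 69.9% of all genes. Import genes had a median of 505 RNA and 176 RPF reads, against 630 and 147 over all genes, and the share within a fold depends on depth. The steadiest were TOM40, TIM44 and MAS2, whose largest absolute log2 ratios were 0.13, 0.15 and 0.16. RNA-seq and RPF ratios had opposite signs for 17 of the 29 genes in the msp1 deletion, 15 in the pex19 deletion and 14 in the double deletion, against 43.6%, 46.0% and 43.6% of all genes.

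**Figure D3:**
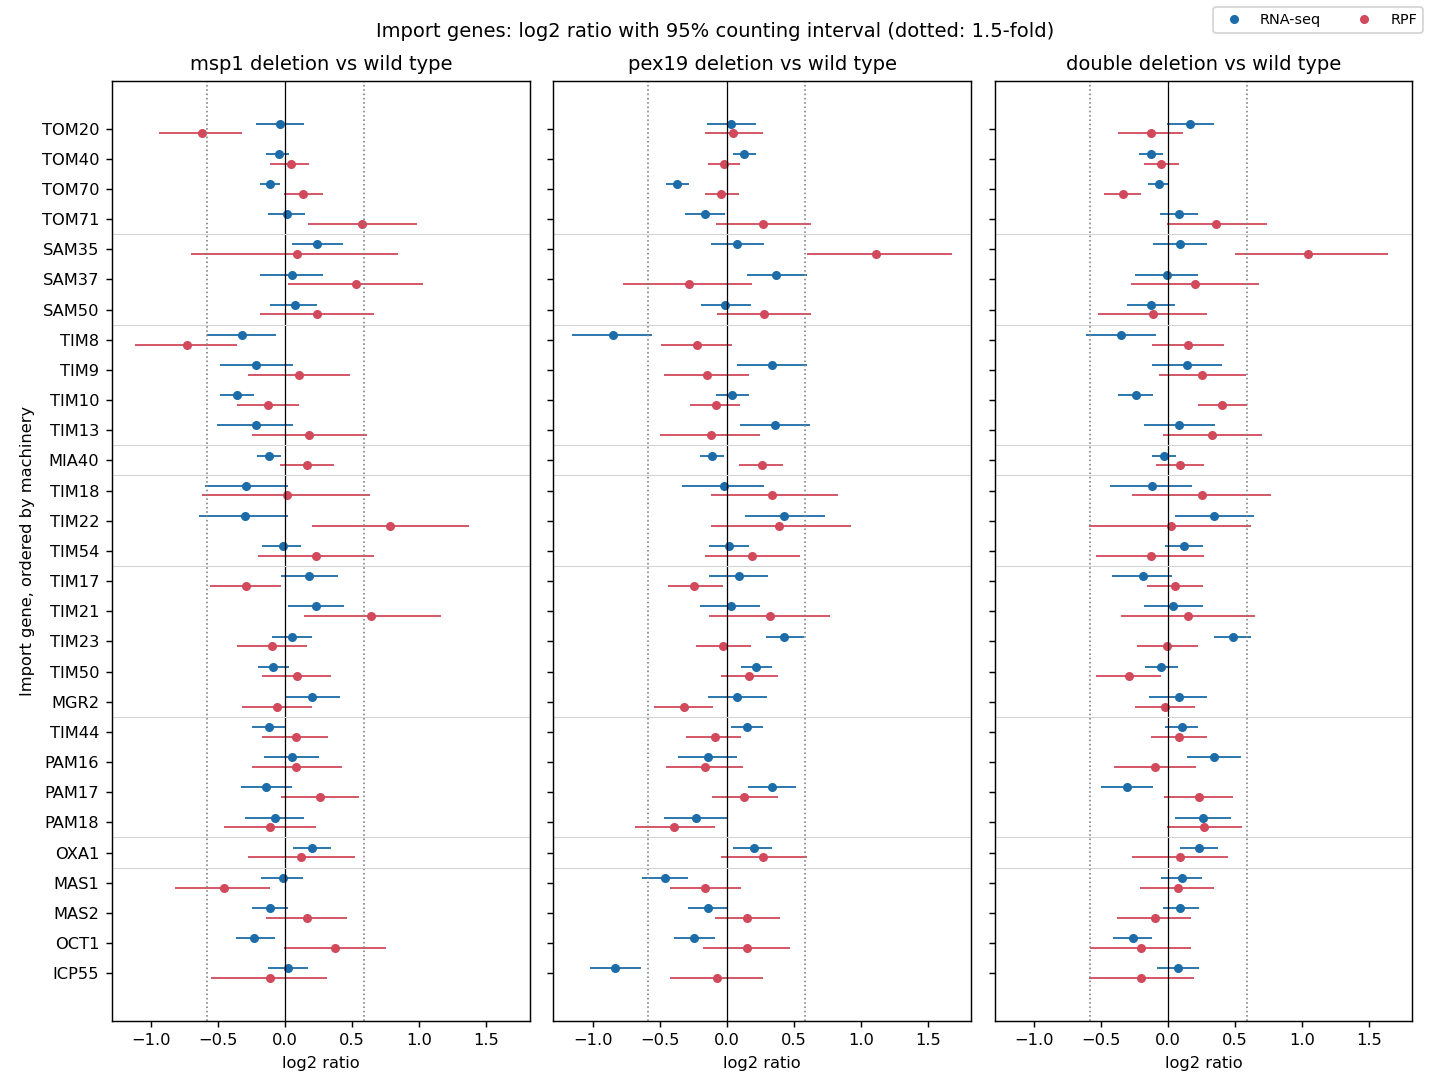
Log2 ratio to wild type of the 29 import genes past the read minimum in the msp1, pex19 and double deletions, with RNA-seq in blue, RPF in red, bars for the 95% counting interval and dotted lines at 1.5-fold. Most points lie between the dotted lines; SAM35 lies past 1.5-fold in RPF, and near 0 in RNA-seq, in the pex19 and double deletions.

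In 1 assay alone, a few import genes passed 1.5-fold. In the RPF libraries of the msp1 deletion these were TIM22 and TIM21, higher (10.1% of all genes), and TOM20 and TIM8, lower (8.30% of all genes). No import gene passed in its RNA-seq, where 0.883% of genes were higher and 0.910% lower. In RNA-seq of the pex19 deletion TIM8 and ICP55 were lower (5.41% of all genes) and none was higher (3.75%). SAM35 alone was higher in RPF of the pex19 deletion (2.92%) and of the double deletion (1.79%), with none lower (1.87% and 1.34%). No import gene passed in RNA-seq of the double deletion (0.883% higher, 1.39% lower). These counts of 0 to 2 of 29 were near the shares over all genes.

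Translational efficiency ratios past 1.5-fold were likewise few. TIM22 and OCT1 were higher in the msp1 deletion (10.5% of all genes) and none was lower (7.95%). SAM35, TIM8 and ICP55 were higher (8.35%) and SAM37 was lower (6.66%) in the pex19 deletion. SAM35 and TIM10 were higher (4.15%) and none was lower (2.78%) in the double deletion. With the trend on length and GC removed, OCT1 in the msp1 deletion (0.46) and TIM10 in the double deletion (0.51) were under 1.5-fold, and TIM9 (0.68) and TIM13 (0.73) passed it in the msp1 deletion. The median efficiency ratio of the import genes was 0.20, 0.02 and 0.02 in log2 for the msp1, pex19 and double deletions.

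The TOM complex is the entry gate: TOM40 forms the channel, TOM20 and TOM70 are receptors for presequences and for internal signals, and TOM71 is a paralog of TOM70. TOM40 was the steadiest import gene. Its RNA-seq level was 426 scaled RPM in wild type, 411 in the msp1 deletion, 468 in the pex19 deletion and 389 in the double deletion, and its RPF level was 504, 517, 498 and 487 in that order. Scaled RPM is a gene's read count relative to its TMM-adjusted library size, and this order of genotypes is kept below. TOM71 had 152, 153, 136 and 161 in RNA-seq and 56.8, 84.7, 68.6 and 73.1 in RPF, so its RPF level was lowest in wild type. The msp1 deletion's RPF ratio for TOM71 was 0.57 (0.17 to 0.98), just under 1.5-fold.

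TOM20 stood apart in 1 library. Its RPF level was 162, 105, 168 and 148, lowest in the msp1 deletion, whose ratio was −0.62 (−0.94 to −0.32), while its RNA-seq level was 96.2, 93.4, 98.3 and 108. RPF ratios of the msp1 deletion followed coding length across all genes, with a Spearman's rho of 0.31, and with the trend on length and GC removed the TOM20 ratio was −0.44, under 1.5-fold. TOM70 had 525, 485, 407 and 500 in RNA-seq, lowest in the pex19 deletion, and 502, 551, 490 and 396 in RPF, lowest in the double deletion. The TPM ratio of TOM70 to TOM71 was 3.10 to 3.58 in RNA-seq and 5.62 to 9.17 in RPF. The best-matching stretch of these paralogs is 71.0% identical over 345 nt, and no import gene has a coding sequence elsewhere at 90% identity over 100 nt or more.

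The SAM complex inserts beta-barrel proteins into the outer membrane: SAM50 is its barrel, and SAM35 and SAM37 are its peripheral subunits on the cytosolic side. SAM35 had the largest ratio to wild type of the 29 genes, in RPF and not in RNA-seq. It had 43 RPF reads in wild type, 24 in the msp1 deletion, 102 in the pex19 deletion and 72 in the double deletion. In scaled RPM these were 20.3, 21.6, 44.6 and 42.4, so both strains without PEX19 were high and both strains with it low. The counting intervals of the low pair (14.7 to 27.4 and 13.8 to 32.2) did not overlap those of the high pair (36.4 to 54.1 and 33.2 to 53.4).

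In RNA-seq, SAM35 was level, at 78.5, 93.0, 83.1 and 83.7 scaled RPM. The RPF log2 ratio to wild type was 1.11 (0.60 to 1.68) in the pex19 deletion and 1.04 (0.50 to 1.64) in the double deletion, where the RNA-seq ratios were 0.08 and 0.09. Against the msp1 deletion, the double deletion gave 0.96 (0.29 to 1.70). The pex19 to wild type and the double to msp1 comparisons use no library in common, and SAM35 was the only import gene at least 1.5-fold higher in RPF in both, as were 10 of 3737 genes (0.268%). In translational efficiency SAM35 and TIM8 were (1.02% of all genes). None of the 29 was lower in both in RPF (0.294%) or efficiency (0.241%), or past 1.5-fold in RNA-seq (0.0803% higher, 0.375% lower). The same count for loss of MSP1 with and without PEX19 held no import gene, against 0.321% of genes higher and 0.107% lower in RNA-seq, 0.535% and 0.134% in RPF, and 0.723% and 0.562% in efficiency. This way of counting was chosen after the values were seen. With the trend on length and GC removed, TIM8 efficiency ratios to wild type were −0.10 in the msp1 and 0.36 in the double deletion. These strains were then under 1.5-fold apart for TIM8, and SAM35 alone stayed past it in both comparisons. SAM35 averaged 60.2 RPF reads over the 4 libraries, close to the minimum of 50 and above it through the 2 strains without PEX19. It entered these counts through the libraries where it was high. The shares of 0.268% and 1.02% therefore do not measure how rare its pattern is.

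Its translational efficiency was −1.60, −1.81, −0.60 and −0.69, so SAM35 was below the median gene in every genotype. SAM37 did not share the pattern: its RPF level was 37.4, 54.0, 30.6 and 43.0, lowest in the pex19 deletion, and its RNA-seq level was 57.2, 59.0, 74.0 and 56.6. SAM50 had 58.7, 69.3, 71.2 and 54.2 in RPF and 100, 105, 100 and 91.9 in RNA-seq. As TPM, SAM37 over SAM35 was 1.85 and 2.52 in RPF of wild type and the msp1 deletion and 0.691 and 1.02 in the pex19 and double deletions. MIM1, which helps to insert outer membrane proteins with helical anchors, was under the minimum at 26.0, 25.2, 29.3 and 19.4 in RPF and 32.4, 35.1, 51.2 and 35 in RNA-seq.

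**Figure D4:**
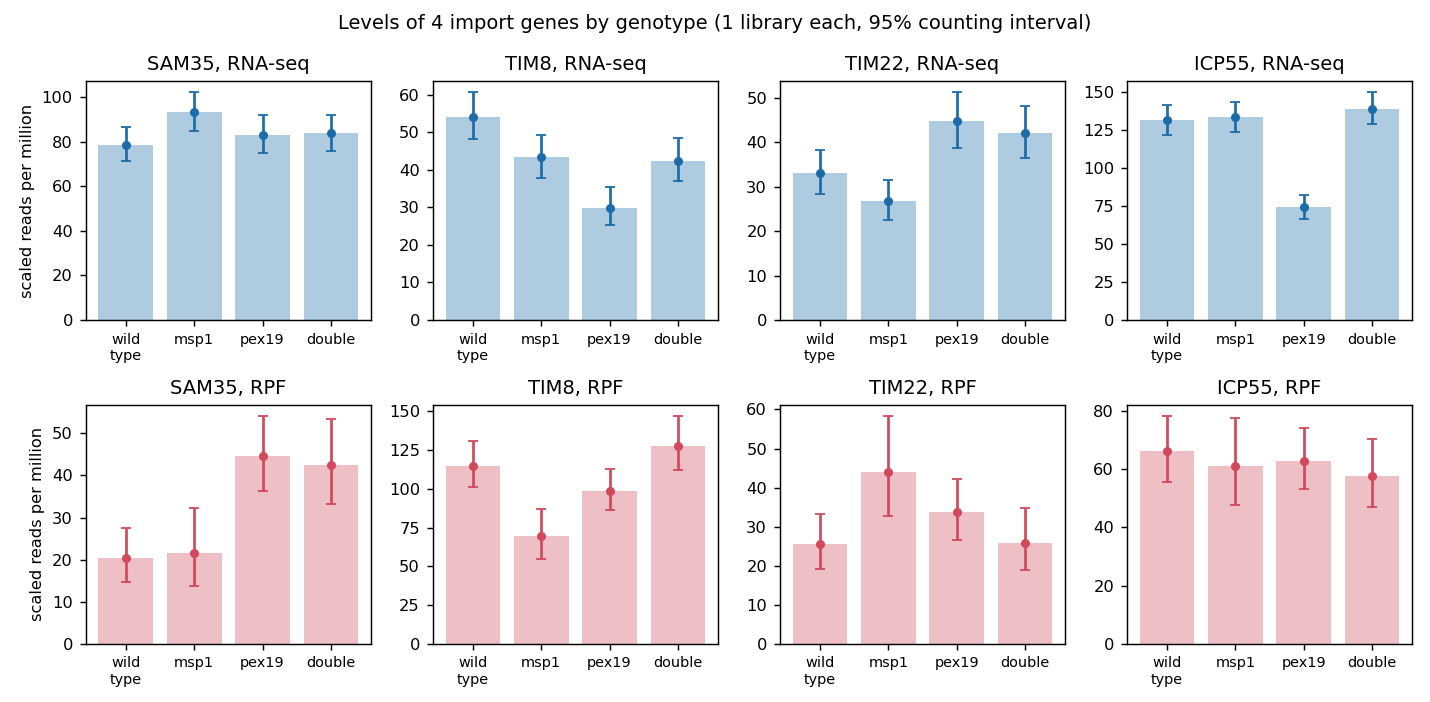
Scaled RPM of SAM35, TIM8, TIM22 and ICP55 in the 4 genotypes, RNA-seq above and RPF below, as bars from 0 with the 95% counting interval of the single library. SAM35 is high in RPF in the pex19 and double deletions (44.6 and 42.4) and level in RNA-seq, while ICP55 is low in RNA-seq of the pex19 deletion (74.2) and level in RPF.

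The small TIMs work as hexamers in the intermembrane space, TIM9 with TIM10 for carriers and TIM8 with TIM13 for a smaller group of precursors, while TIM12 docks the TIM9-TIM10 form on TIM22. TIM8 was the most variable of those past the minimum. Its RNA-seq level was 54.1, 43.3, 29.9 and 42.4, highest in wild type and lowest in the pex19 deletion, whose ratio was −0.85 (−1.15 to −0.56). Its RPF level was 115, 69.3, 98.8 and 128, lowest in the msp1 deletion, whose ratio was −0.73 (−1.12 to −0.36). That RPF ratio was −0.36, under 1.5-fold, with the trend on length and GC removed. TIM8 had the lowest mean of the RNA-seq and RPF ratios in both single deletions, −0.53 for msp1 and −0.54 for pex19.

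TIM10 had 216, 169, 223 and 183 in RNA-seq and 227, 207, 214 and 300 in RPF. The double deletion therefore held the highest RPF level, 0.40 (0.22 to 0.59) above wild type, beside an RNA-seq ratio of −0.24 (−0.37 to −0.11). TIM8, TIM9, TIM10 and TIM13 each had their highest RPF level in the double deletion, where TIM9 and TIM13 stood at 91.9 and 73.7 scaled RPM. The share of all genes that did so was not counted. With the trend on length and GC removed, TIM9 and TIM13 were highest in RPF of the msp1 deletion. Their ratios to wild type were then 0.49 and 0.52 there, and 0.20 and 0.28 in the double deletion. TIM8 (−0.36 in the msp1 and 0.09 in the double deletion) and TIM10 (0.22 and 0.35) stayed highest in the double deletion. Against the pex19 deletion, the double deletion's efficiency ratio was 0.60 for TIM9, 0.77 for TIM10 and 0.73 for TIM13, but −0.12 for TIM8 and −0.17 for TIM12. SAM37 (0.87) and PAM17 (0.74) also passed 1.5-fold there, 5 of 29 import genes against 8.91% of all genes. TOM70 (−0.60) and ICP55 (−1.03) were lower, against 8.46%. Several of these calls rested on the trend. Without it, efficiency ratios to wild type in the pex19 and double deletions were −0.28 and −0.02 for TIM9. They were 0.06 and 0.51 for TIM10, −0.31 and 0.13 for TIM13, and 0.28 and −0.25 for TOM70. Each of these genes was then under 1.5-fold apart. SAM37 (−0.65 and 0.19), PAM17 (−0.12 and 0.48) and ICP55 (0.73 and −0.26) stayed past it, and PAM16 (0.11 and −0.52) passed it downward.

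TIM12, under the minimum, had 123, 93, 38 and 106 RNA reads and 58, 19, 34 and 58 RPF reads. Its log2 ratio in the pex19 deletion was −1.43 (−2.02 to −0.92) in RNA-seq and −0.86 (−1.54 to −0.25) in RPF, the only import gene at least 1.5-fold lower in both assays once low genes are counted. RNA-seq ratios of the pex19 deletion spread widely among low genes: of the 22 genes with 50 to 100 mean RNA reads that passed the minimum, 36.4% were at least 2-fold lower, and of the 266 with 100 to 200 reads 6.77% were. Of the 1195 genes with 200 to 500 reads, 1.0% were. TIM12 lies in the lowest of these ranges and TIM8 near the bottom of the highest, and the part of this spread in their ratios was not tested.

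MIA40, the receptor and oxidoreductase of the oxidative pathway, was abundant and steady, with 410, 377, 380 and 401 in RNA-seq and 262, 292, 313 and 278 in RPF. Its largest ratio to wild type was 0.26 (0.09 to 0.42), in RPF of the pex19 deletion. HOT13, a zinc-binding protein that assists this pathway, had 11.4, 6.64, 4.34 and 11.6 in RNA-seq, from 20 to 62 reads, and 8.52, 7.20, 10.5 and 10.0 in RPF. Its RNA-seq level was lowest in the pex19 deletion, like that of TIM12.

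TIM22 is the channel of the carrier translocase, TIM54 holds its intermembrane space domain and TIM18 is a membrane subunit. TIM22 moved in opposite ways in the 2 assays of the msp1 deletion. Its RNA-seq level was 33.1, 26.8, 44.7 and 42.0, lowest in the msp1 deletion, and its RPF level was 25.5, 44.1, 33.7 and 25.9, highest there. The RPF ratio was 0.78 (0.20 to 1.37) from 49 and 54 reads, the RNA-seq ratio −0.30 (−0.64 to 0.02), and the efficiency ratio 1.08, the largest of the 29. With TMM computed over all listed genes the RPF ratio was 0.58, just under 1.5-fold, and with the length and GC trend removed it was 0.92.

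In the double deletion TIM22 did not have this RPF level: against the msp1 deletion its ratio was −0.75 (−1.39 to −0.15) in RPF and 0.65 (0.34 to 0.97) in RNA-seq. TIM54 had 146, 144, 148 and 159 in RNA-seq and 58.2, 68.4, 66.4 and 53.0 in RPF, a low efficiency in every genotype, from −1.29 to −0.80. TIM18 had 36.6, 30, 36.0 and 33.6 in RNA-seq and 31.2, 31.5, 39.8 and 37.1 in RPF.

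The TIM23 complex takes presequence proteins across the inner membrane: TIM23 and TIM17 are its membrane core, TIM50 its receptor, TIM21 links it to TOM, and MGR2 is a small membrane subunit that couples TIM21. TIM17 had 65.5, 74.0, 69.7 and 57.2 in RNA-seq and 191, 156, 162 and 198 in RPF, a high efficiency throughout, from 1.34 to 2.06. MGR2 had 67.7, 78.0, 71.6 and 71.5 in RNA-seq and 177, 170, 142 and 174 in RPF, lowest in the pex19 deletion. TIM23 had 140, 145, 189 and 196 in RNA-seq, higher in both strains without PEX19, with ratios to wild type of 0.43 (0.29 to 0.58) and 0.48 (0.34 to 0.62). Its RPF level was 179, 167, 176 and 178, with ratios of −0.03 and −0.01, so the RNA-seq difference was not seen in RPF.

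TIM21 had the highest mean ratio of the msp1 deletion, 0.44. Its level was 65.5, 76.9, 66.6 and 67.4 in RNA-seq and 35, 54.9, 43.7 and 38.9 in RPF, highest in the msp1 deletion in both, with ratios of 0.23 (0.02 to 0.44) and 0.64 (0.14 to 1.16). With TMM over all listed genes the RPF ratio was 0.44, under 1.5-fold, and with the length and GC trend removed it was 0.74. TIM21 lies 10956 nt from MSP1 on chromosome VII with 5 coding genes between them, and in the double deletion, which also lacks MSP1, its ratios were 0.04 and 0.15. TIM50 had 227, 214, 265 and 220 in RNA-seq and 168, 178, 189 and 137 in RPF, lowest in RPF in the double deletion.

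The PAM motor drives matrix import: TIM44 anchors the matrix Hsp70 at the channel, PAM18 is the J protein that stimulates it, PAM16 is the J-like partner of PAM18, and PAM17 helps to organise them. All 4 were within 1.5-fold of wild type in all 6 ratios. TIM44 had 205, 188, 227 and 219 in RNA-seq and 188, 198, 176 and 199 in RPF. PAM18 had 65.7, 62.2, 56.0 and 78.9 in RNA-seq and 101, 93.7, 77.4 and 122 in RPF, lowest in the pex19 and highest in the double deletion in both assays. The double deletion exceeded the pex19 deletion by 0.49 (0.26 to 0.73) and 0.65 (0.36 to 0.95).

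PAM16 followed its partner in RNA-seq, at 71.5, 73.8, 64.9 and 90.5, but not in RPF, at 100, 106, 89.6 and 93.7. PAM17 had 93.4, 84.8, 118 and 75.5 in RNA-seq, the reverse order for the pex19 and double deletions, and 124, 149, 136 and 145 in RPF. OXA1, the inner membrane insertase that also receives proteins made in the matrix, had 146, 167, 167 and 171 in RNA-seq and 68.6, 74.7, 83.0 and 73.1 in RPF. It was lowest in wild type in both assays, with ratios of 0.20 to 0.23 and 0.09 to 0.27.

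The processing peptidases cut the imported chains: MAS1 and MAS2 are the subunits of the matrix processing peptidase, OCT1 and ICP55 trim the new ends further, and IMP1, IMP2 and SOM1 form the inner membrane peptidase. ICP55 had 717, 704, 342 and 694 RNA reads, which is 132, 134, 74.2 and 139 scaled RPM, so the pex19 deletion was far below the other 3 genotypes. Its ratio there was −0.83 (−1.02 to −0.64). In RPF, ICP55 was 66.2, 61.2, 62.9 and 57.7, with a ratio of −0.07 (−0.42 to 0.27), and the efficiency ratio was 0.75. The 4 peptidase genes past the minimum were all below wild type in RNA-seq of the pex19 deletion, with a median of −0.35, and 2 of 4 were below it in RPF. Over all genes 51.2% were above wild type in that RNA-seq comparison. Of the peptidase genes under the minimum, IMP2 (0.77) and SOM1 (1.32) were above wild type there and IMP1 (−0.33) was below.

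OCT1 had 161, 138, 137 and 134 in RNA-seq, highest in wild type, and 69.1, 89.2, 76.5 and 60.1 in RPF. Its mean ratio of −0.23 was the lowest in the double deletion, and its efficiency ratio of 0.59 in the msp1 deletion was at the 1.5-fold line. MAS1 had 132, 130, 95.9 and 141 in RNA-seq and 115, 83.8, 104 and 121 in RPF, low in the pex19 deletion in the former and in the msp1 deletion in the latter. MAS2 had 165, 152, 149 and 176 in RNA-seq and 122, 136, 135 and 113 in RPF.

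The inner membrane peptidase genes were under the minimum. IMP2 had 134, 114, 194 and 130 RNA reads, highest in the pex19 deletion, and 29, 11, 38 and 19 RPF reads. IMP1 had 62.9, 56.0, 49.9 and 48.2 scaled RPM in RNA-seq and 19.9, 24.3, 14.9 and 17.7 in RPF. SOM1, its small partner, had 10.7, 15, 26.9 and 18.2 in RNA-seq, highest in the pex19 deletion, and 11.4, 14.4, 11.4 and 14.1 in RPF. Its pex19 ratio was 1.32 (0.87 to 1.81) in RNA-seq and 0.00 (−0.86 to 0.86) in RPF. The RPF levels rest on 24, 16, 26 and 24 reads, too few to exclude a smaller change.

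Partner subunits that form a common complex were not at equal levels, and the RPF ratio was nearer to 1 than the RNA-seq ratio for some pairs only. MAS1 over MAS2 was 0.835 in RNA-seq and 0.992 (0.829 to 1.19) in RPF of wild type, per length, and its RPF range over genotypes was 0.643 to 1.12. TIM9 was well below TIM10 in every library, at 0.222 to 0.289 in RNA-seq and 0.332 to 0.434 in RPF. TIM17 was below TIM23 in RNA-seq (0.424 to 0.739) and above it in RPF (1.34 to 1.61), without overlap between the assays. TIM8 over TIM13 ranged from 0.678 to 1.57 in RNA-seq, with the pex19 deletion lowest, and from 1.30 to 2.46 in RPF, with the msp1 deletion lowest.

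PAM16 over PAM18 had the narrowest RNA-seq range, 1.24 to 1.35, and 0.878 to 1.32 in RPF. IMP1 over IMP2 was 1.1 to 2.39 in RNA-seq and 0.828 to 2.27 in RPF, on low counts. Short genes had more RPF reads per RNA read in these libraries, and the part of length in these ratios was not tested.

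**Figure D5:**
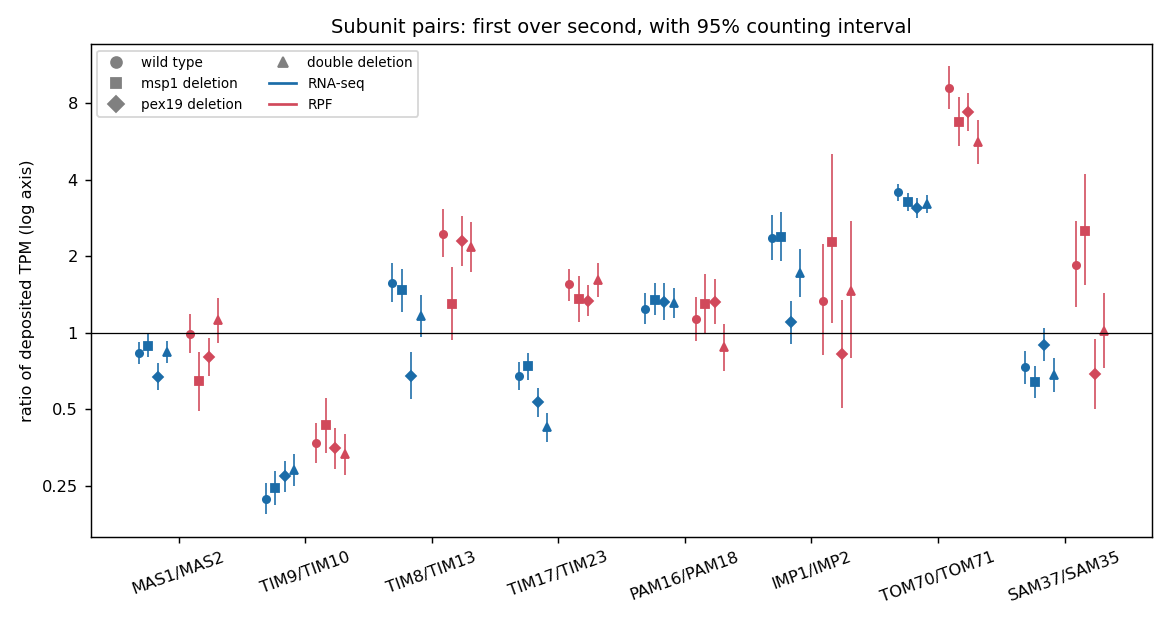
Ratio of deposited TPM between partner subunits, and between the paralogs TOM70 and TOM71, in each of the 8 libraries on a logarithmic axis. RNA-seq is in blue and RPF in red, with a symbol for each genotype and bars for the 95% counting interval. TIM17/TIM23 lies under 1 in RNA-seq and over 1 in RPF, TIM9/TIM10 lies under 1 throughout, and SAM37/SAM35 drops in RPF in the pex19 and double deletions.

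Against the single deletions, the double deletion again had no import gene at least 1.5-fold different in both assays. Over all genes, 0.669% were higher and 0.723% lower than in the pex19 deletion, and 0.268% higher and 0.669% lower than in the msp1 deletion. In RPF, PAM18 passed 1.5-fold over the pex19 deletion (2.92% of all genes) and SAM35 and TIM8 over the msp1 deletion (8.75%), with TIM22 below it (9.12%). With the length and GC trend removed, RPF ratios to wild type were −0.30 and 0.24 for PAM18 in the pex19 and double deletions. For TIM8 they were −0.36 and 0.09 in the msp1 and double deletions. Both gaps were under 1.5-fold, while that of TIM21 (0.74 in the msp1 and 0.14 in the double deletion) passed it downward. In RNA-seq, ICP55 was higher (5.81%) and PAM17 lower (5.33%) than in the pex19 deletion, and TIM22 was higher than in the msp1 deletion (1.31%). None was lower in RPF than in the pex19 deletion (2.65%) or in RNA-seq than in the msp1 deletion (1.95%). Efficiency ratios to the msp1 deletion passed 1.5-fold upward for SAM35 (1.11), TIM8 (0.91) and TIM17 (0.71), against 10.9% of all genes, and downward for TIM22 (−1.40), against 10.6%. Without the trend, efficiency ratios to wild type in the msp1 and double deletions were −0.10 and 0.36 for TIM8. Those of TIM17 were −0.22 and 0.20, and both genes were then under 1.5-fold apart. SAM35 and TIM22 stayed past it, and TIM9 (0.68 and −0.02), TIM13 (0.73 and 0.13) and PAM16 (0.24 and −0.52) passed it downward.

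Other genes that serve the same routes were read from 4 lists: 15 further import components, 8 cytosolic chaperones that deliver precursors, 13 MIA40 substrates and 6 genes of the import stress response. ERV1, the sulfhydryl oxidase that reoxidises MIA40, was the only one past 1.5-fold in both assays against wild type. The minimum was passed by 12, 8, 13 and 3 genes of these lists, and 0.187% of all genes were that much lower in the msp1 deletion and 0.348% in the double deletion. ERV1 had 286, 169, 323 and 131 RNA reads and 166, 33, 128 and 35 RPF reads, low in both strains without MSP1. Its ratios were −0.71 (−1.0 to −0.43) and −1.39 (−1.99 to −0.86) in the msp1 deletion. Those of the double deletion were −1.0 and −1.90. ERV1 is the gene next to MSP1 on chromosome VII, on the same strand with 261 nt between the coding sequences, so loss of MSP1 and a change at the edited locus cannot be told apart for it. MIA40 itself stayed within 0.12 of wild type in RNA-seq.

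Median RPF ratios of the 13 MIA40 substrates were −0.33 (msp1), −0.35 (pex19) and 0.07 (double deletion), beside RNA-seq medians of −0.13, 0.04 and 0.04. Over all genes, RPF ratios followed coding length with a Spearman's rho of 0.31, 0.21 and −0.07 in these comparisons, and the part of length in the medians of these short genes was not tested. The 8 chaperones had RPF medians of −0.16, −0.16 and −0.05. Of the 6 stress response genes 3 passed the minimum, with RNA-seq medians of 0.00, −0.07 and −0.07. In RPF, YOR1 was 0.75 (0.29 to 1.23), 0.63 (0.24 to 1.05) and 0.46 (0.02 to 0.91). It was past 1.5-fold in the single deletions, as were 10.1% and 2.92% of all genes. The RNA-seq ratios of YOR1 were −0.06, −0.30 (−0.39 to −0.20) and −0.07. Its RPF ratios rest on 74, 140 and 92 reads, against 83 in wild type. SNQ2 was 0.24, 0.16 and 0.12 in RPF, and PDR5 −0.28, 0.07 and −0.25. CIS1, PDR3 and PDR15 were under the minimum, CIS1 with 1 or 2 RPF reads.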

How the data were processed

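RNA-seq and RPF libraries of the 4 genotypes were compared within each assay. Per the submitters' processing notes, reads went through cutadapt 1.8 and STAR 2.5 on sacCer3 (R64). Not given in the sources used here are the counting program and its strand setting. The authors' deposited read counts are whole numbers, with 1 as the lowest value listed. The authors' deposited TPM values, per the file headers, were used for levels between genes; for all 35 import genes the length they imply is the coding sequence less 50 nt. RPM and RPKM columns, deposited by the authors with RNA-seq of the double deletion, were not used for results. Counts were scaled by TMM (edgeR 4.0.16 in R 4.3.3) on genes averaging 50 counts or more, with DESeq2 1.42.0 size factors tried in its place. Before each log2 ratio, 1 read (scaled by library size) was added to both counts. Intervals are exact (Clopper-Pearson, conditional binomial) at 95%; scaled levels have Poisson intervals. A gene was called past 1.5-fold (0.585 in log2). Translational efficiency ratios are the RPF minus the RNA-seq log2 ratio. They and the ratios with a trend removed are given without an interval. Without replicates, no p-value can be given. The calculation was tested on simulated data.

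The members and lists were chosen with earlier results of these data known. All members are named. Values in every library were required for the highest and lowest mean ratio and the 2 largest efficiency ratios of each deletion, and the 3 highest and lowest wild-type levels and efficiencies. Spike oligonucleotides were not used here, so all values are relative within an assay.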

Additional observations from a re-analysis of the deposited data

Results flagged for a closer look

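TIM8 was the only import gene whose ratio on loss of MSP1 turned round with the genetic background in both assays, each interval leaving out 0. Against wild type, the msp1 deletion was lower, at −0.32 (−0.58 to −0.07) in RNA-seq and −0.73 (−1.12 to −0.36) in RPF. Against the pex19 deletion, the double deletion was higher, at 0.50 (0.19 to 0.82) and 0.38 (0.10 to 0.65). The RNA-seq ratio with PEX19 present minus that without it was −0.82. These comparisons share no library, each rests on 1 library per genotype, and the difference itself was not tested. The share of all genes that turn round in this way was not counted. With the trend on length and GC removed, the RPF ratio of TIM8 to wild type was −0.36 in the msp1 deletion. It was −0.07 in the pex19 and 0.09 in the double deletion. The RPF change on loss of MSP1 was then smaller in both backgrounds, and no interval was computed for it.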

How the results depend on the processing

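No paired analysis was possible because each genotype had 1 library per assay. The count of import genes at least 1.5-fold changed in both assays stayed at 0 under library totals, TMM over all listed genes, DESeq2 size factors, TMM without ribosomal protein genes, pseudocounts of 0.1 and 5, a minimum of 200 counts, removal of the length and GC trend, deposited TPM and a 2-fold limit. With a minimum of 10 counts or none, TIM12 entered, giving 1 gene lower against wild type in the pex19 deletion and 1 higher in the double than in the pex19 deletion. At a looser limit of 0.32 in log2, 1 gene (TIM22) was higher against wild type in the pex19 deletion, 2 (TIM8 and PAM18) were higher in the double than in the pex19 deletion, and 1 (PAM18) was higher in the double than in the msp1 deletion. Shares of all genes at the lower minimum and the looser limit are not given, so these counts have no background beside them. The SAM35 RPF ratio kept to 1.04 to 1.13 in the pex19 deletion and 0.97 to 1.06 in the double deletion over the settings run. TMM over all listed genes moved the median RPF ratio of all genes in the msp1 deletion from 0.015 to −0.185 and that of the import genes from 0.09 to −0.11; other medians between −0.04 and 0.08 changed sign under some settings, as did the efficiency median of the double against the pex19 deletion, from −0.15 to 0.098 with a minimum of 200 counts. Of 174 ratios of single import genes, 3 moved past their counting interval under that scaling, 3 with the trend removed, 4 with TPM and none under the other scalings or pseudocounts. Depth limits TIM12, HOT13, IMP2 and SOM1 most, and SAM35, TIM22 and TIM21 in RPF of the msp1 deletion, at 24 to 61 reads. Nothing in the sources gives a repeat culture, so differences between cultures and between genotypes cannot be told apart.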
